A study of Mus musculus with 14 samples.

Results

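The genes described here encode neurotrophic ligands and their receptors: the neurotrophins Bdnf and Ntf3, the glial cell line-derived factor Gdnf, the neurotrophin receptors Ntrk2, Ntrk3 and Ngfr, and the GDNF family receptors Gfra1, Gfra2 and Ret. These 9 genes were chosen by symbol, and 8 of them were measured among the 16703 genes of the deposited table. Ntf3 was not analysed here. Expression was measured by RNA sequencing of spinal cord from C57Bl/6 mice with experimental autoimmune encephalomyelitis (EAE), a T cell-driven model of multiple sclerosis induced with a myelin oligodendrocyte glycoprotein peptide in complete Freund's adjuvant. Female mice were ovariectomized and male mice were castrated, and they were 9 to 10 weeks old when a 1-week acclimatization before immunization began. Dihydrotestosterone (DHT), an androgen receptor agonist that is not converted to estrogen, was given intranasally at 0.04 mg per day for 8 days from the first neurological signs, and controls received the vehicle. There were 4 vehicle and 3 DHT libraries of each sex, 14 in all. Every animal was gonadectomized and had EAE, so no healthy or hormonally intact group entered the comparisons. The question was whether DHT acts differently on the diseased spinal cord of females and males.

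BDNF binds the receptor tyrosine kinase TrkB, the product of Ntrk2, and NT-3 binds TrkC, the product of Ntrk3. All neurotrophins also bind p75, the product of Ngfr, whose outcome depends on its partners and includes survival as well as cell death. GDNF and its relatives bind GPI-anchored GFRα co-receptors, which then engage the tyrosine kinase Ret. In the spinal cord these ligands are known for supporting motor neurons and axons, BDNF and NT-3 also act on oligodendrocyte lineage cells, and truncated TrkB is abundant in astrocytes.

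Library depth, as whole reads recovered from the normalized values, ranged from 29311155 to 35761972. DHT libraries had the higher depth in each sex, without overlap. In females it was 32224727 to 35761972 with DHT and 29311155 to 31098108 with vehicle. In males it was 31290267 to 31862751 with DHT and 30774957 to 30929550 with vehicle. An expression level below is a log2 CPM, where CPM is the reads of a gene scaled to the depth of its library. Neuron and oligodendrocyte markers were high in all 14 libraries, as fits whole spinal cord. A pair of libraries stood apart. The library labelled male DHT 3 had an Xist level of 7.41 log2 CPM, whereas the other male libraries lay between −3.39 and 0.14. The female vehicle 3 library had 3.04 where the other female libraries had 6.80 to 9.22. The 14 libraries also lacked 1 direction of variation, in which male DHT 3 carried 59.7% and female vehicle 3 26.7% of the squared weight, so that they are not fully independent of each other. The libraries with the most weight are thus those with the unlike Xist levels. Whether these levels come from the authors' normalization or from exchanged samples was not tested. With limma fitted to all genes and groups, 47.1% of genes passed an adjusted p of 0.05 in the female comparison (19.8% rose, 27.3% fell) and 22.8% in the male comparison (12.1% rose, 10.7% fell). This split depended on the scaling of the libraries: the female numbers of 3306 higher and 4565 lower became 7448 and 2509 when the values were centred on housekeeping genes, 5129 and 3235 after quantile normalization, 1828 and 4669 when centred on astrocyte markers and 91 and 11654 when centred on neuron markers. The male numbers of 2023 higher and 1783 lower became 6143 and 350 when centred on astrocyte markers and 79 and 9951 when centred on neuron markers. Sex was confounded with dataset, because each sex had been processed as a dataset of its own. All library labels carry the same replicate number, so the p-values measure the spread between these libraries.

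DHT acts through a receptor that binds DNA, and Bdnf in males and Ntrk2 in females had the largest called changes among the 8 genes, so the sequence around their transcription start sites is shown. RefSeq (GRCm38.p6) lists 7 start sites for Bdnf, of which the first and the third are printed, and 1 for Ntrk2. Each window runs from 250 bases before the start site to 50 bases after it, on the plus strand. Capitals mark letters of a searched motif, on either strand.
Bdnf start site 1, chr2:109674450-109674749: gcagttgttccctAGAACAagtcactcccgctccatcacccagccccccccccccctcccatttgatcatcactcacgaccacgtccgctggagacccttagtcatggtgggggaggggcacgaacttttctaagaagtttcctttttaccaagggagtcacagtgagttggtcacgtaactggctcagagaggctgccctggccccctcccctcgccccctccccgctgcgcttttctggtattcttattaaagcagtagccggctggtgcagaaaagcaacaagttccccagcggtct
Bdnf start site 3, chr2:109692186-109692485: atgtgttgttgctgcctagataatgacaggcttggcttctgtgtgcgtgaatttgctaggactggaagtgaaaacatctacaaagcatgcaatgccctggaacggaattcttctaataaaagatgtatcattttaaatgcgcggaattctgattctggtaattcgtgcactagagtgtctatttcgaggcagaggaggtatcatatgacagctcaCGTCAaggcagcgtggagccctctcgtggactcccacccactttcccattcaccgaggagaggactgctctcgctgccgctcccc
Ntrk2 start site, chr13:58806319-58806618: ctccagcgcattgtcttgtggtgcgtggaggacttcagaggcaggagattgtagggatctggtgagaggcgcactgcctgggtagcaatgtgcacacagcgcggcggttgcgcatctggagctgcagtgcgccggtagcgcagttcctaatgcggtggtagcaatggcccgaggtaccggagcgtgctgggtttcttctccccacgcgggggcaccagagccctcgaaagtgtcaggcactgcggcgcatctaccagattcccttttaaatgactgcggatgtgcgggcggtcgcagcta

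In the first Bdnf window the capitals are the androgen response half-site TGTTCT on the minus strand, whose first base lies 237 bases before the start site. The same letters occurred once in the second and once in the sixth Bdnf window. In the third window the capitals are the half-site of the cAMP response element, TGACG on the minus strand, 35 bases before the start site. The first Gdnf window held both half-sites, although Gdnf was not called in either sex. There TGACG lay on the minus strand 50 bases before the start site and TGTTCT 11 bases after it. Neither half-site was in the Ntrk2 window, in Bdnf windows 4, 5 and 7, in Gdnf window 2 or in the Ngfr and Gfra1 windows. These letters are common: among 32851 promoter windows of the same length, 19.0% held TGTTCT and 20.8% held TGACG. The full androgen response element and the full cAMP response element, TGACGTCA, were in none of the 12 windows of 5 genes on this list, and in 0.00913% and 1.79% of all windows. All sequences are RefSeq reference sequence, the matches are descriptions of letters, and the expression values below are per gene, so they do not tell which start site was used.

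Expressed per kb of exon, the Trk, GFRα and Ret receptors stood above the ligands, and Ngfr lay near Bdnf. In vehicle-treated females Gfra1 was highest with a mean of 4.35 ± 0.25 log2 CPM per kb (SD, n = 4), followed by Ntrk2 with 3.93 ± 0.18 and Ret with 3.77 ± 0.35, and the libraries of these neighbours overlapped. Gfra2 came next with 2.56 ± 0.21, then Ntrk3 with 2.06 ± 0.18, Ngfr with 0.54 ± 0.39, Bdnf with 0.01 ± 0.14 and Gdnf with −2.25 ± 0.87 log2 CPM per kb. Only Ngfr and Bdnf overlapped among these. The order was the same in vehicle-treated males except that Ntrk2 (4.0 ± 0.04) stood ahead of Gfra1 (3.92 ± 0.14), with overlapping libraries. In DHT-treated males Gfra1 (4.29 ± 0.06, n = 3) stood above Ntrk2 (4.11 ± 0.13) without overlap, and Ret (3.88 ± 0.15) overlapped Ntrk2. In DHT-treated females the order of the first 3 genes was Ntrk2 (4.56 ± 0.20, n = 3), Gfra1 (4.34 ± 0.17) and Ret (4.13 ± 0.09), each overlapping the next. Ntrk3 was placed by an exon length of 30.17 kb in GENCODE, the longest here, which lowers its place per kb.

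**Figure D1:**
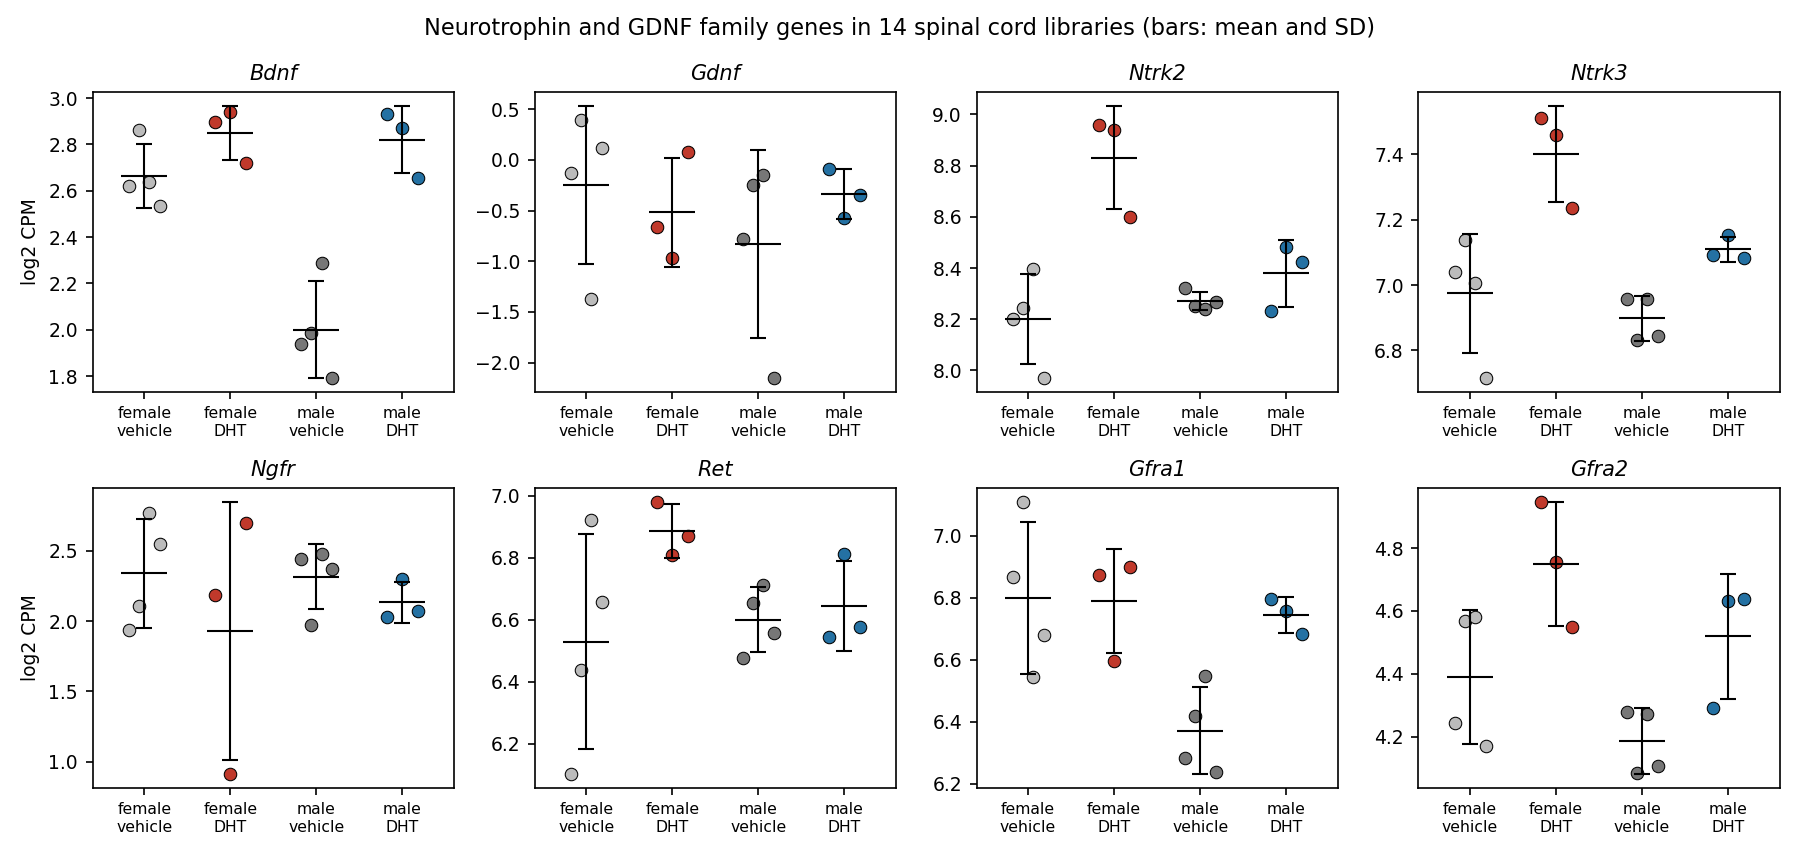
Expression of the 8 measured genes as log2 CPM on the vertical axis, with 1 point per library for the 4 groups on the horizontal axis and bars for the mean and SD. Bdnf in vehicle-treated males (1.79 to 2.29) sits below every other group, and Ntrk2 in DHT-treated females (8.60 to 8.96) sits above every other group.

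Among the ligands, Bdnf rose with DHT in males. Bdnf (ENSMUSG00000048482, chr2:109674700-109727007, plus strand, GRCm38), the neurotrophin that signals through TrkB, had 1.94, 1.99, 2.29 and 1.79 log2 CPM in the 4 vehicle-treated males and 2.93, 2.87 and 2.66 in the 3 DHT-treated males. The groups did not overlap, and these levels rest on 105 to 149 reads per vehicle library and 199 to 241 per DHT library. The log2 fold change was 0.82 ± 0.13 (SE, limma adjusted p = 0.00438), a fold of 1.76. In females the vehicle libraries had 2.62, 2.86, 2.64 and 2.53 and the DHT libraries 2.90, 2.94 and 2.72 log2 CPM. Here the groups overlapped, and the difference of 0.19 ± 0.13 did not pass (limma adjusted p = 0.251). This female value depended on the scaling: it passed after quantile normalization (0.45, limma adjusted p = 0.0338) and when centred on housekeeping genes (0.47, limma adjusted p = 0.0182). The range of the vehicle-treated females overlapped that of the males with DHT, although a difference between the sexes cannot be told apart from one between the datasets. Without the library labelled male DHT 3 and female vehicle 3, the male change was 0.79 (limma adjusted p = 0.0323). Part of the Bdnf exons, 896 bases, lie opposite the antisense gene Gm45346. The study's methods name a directional library kit, but whether the counting used strand is not given in the sources used here.

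Gdnf, a survival factor for motor neurons, was close to the limit of detection. Gdnf (chr15:7810846-7837575, plus strand) had 5 to 39 reads per library. In females it had −0.13, 0.40, −1.37 and 0.12 log2 CPM with vehicle and −0.67, −0.97 and 0.08 with DHT. In males it had −0.78, −0.25, −0.15 and −2.15 with vehicle and −0.09, −0.58 and −0.35 with DHT. All groups overlapped, and the log2 fold changes of −0.27 ± 0.50 in females and 0.49 ± 0.50 in males (limma adjusted p = 0.676 and 0.508) were within the spread, so a difference was not detectable at this depth.

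The Trk receptors rose in females. Ntrk2 (ENSMUSG00000055254, chr13:58806569-59133970, plus strand), which encodes TrkB, had 8.20, 8.24, 8.39 and 7.97 log2 CPM with vehicle and 8.96, 8.94 and 8.60 with DHT. Every DHT library lay above every vehicle library, with DHT libraries 1 and 2 well above the third. The log2 fold change was 0.63 ± 0.11 (limma adjusted p = 0.00478), a fold of 1.55. In males the vehicle libraries were tightly grouped at 8.32, 8.25, 8.24 and 8.27, and the DHT libraries had 8.23, 8.48 and 8.42. DHT library 2 fell just below the lowest vehicle library, and the log2 fold change of 0.11 ± 0.11 did not pass (limma adjusted p = 0.489). Without both libraries of unlike Xist level the female change was 0.69 (limma adjusted p = 0.00626) and the male one 0.057 (limma adjusted p = 0.776).

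Ntrk3 (chr7:78175959-78738012, minus strand, in GENCODE), which encodes the NT-3 receptor TrkC, showed the same direction in both sexes. In females the vehicle libraries had 7.04, 7.14, 7.0 and 6.71 and the DHT libraries 7.51, 7.46 and 7.23 log2 CPM, a log2 fold change of 0.43 ± 0.09 (limma adjusted p = 0.00525). In males the values were 6.96, 6.83, 6.96 and 6.84 with vehicle and 7.09, 7.15 and 7.08 with DHT. The groups did not overlap in either sex, but in males the log2 fold change of 0.21 ± 0.09 did not pass (limma adjusted p = 0.117). Without both libraries of unlike Xist level these values were 0.44 (limma adjusted p = 0.00975) and 0.19 (limma adjusted p = 0.295). The Ntrk3 row held exactly the same value in all 14 libraries as that of E430016F16Rik, a long non-coding RNA that RefSeq places next to Ntrk3 at chr7:78581066-78718220, inside the span GENCODE gives to Ntrk3. Reads of these genes therefore cannot be told apart, and the change may belong to either transcript. Such identity is uncommon, with 166 of 16703 rows sharing all values with another row.

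Ngfr (chr11:95568818-95587735, minus strand), which encodes p75 and is high in Schwann cells and some sensory neurons, was low and variable. The female vehicle libraries had 1.93, 2.11, 2.77 and 2.55 log2 CPM and the DHT libraries 2.18, 0.91 and 2.70. DHT library 2, with 65 reads, was the lowest of all and opposite in direction to DHT library 3. The male libraries had 2.44, 1.97, 2.47 and 2.37 with vehicle and 2.03, 2.30 and 2.07 with DHT. Neither the female log2 fold change of −0.41 ± 0.34 nor the male one of −0.18 ± 0.34 passed (limma adjusted p = 0.336 and 0.730). Without female DHT library 2 the female value was 0.10 (limma adjusted p = 0.770), and without DHT library 3 it was −0.79 (limma adjusted p = 0.0499). Summed Schwann cell markers ranged from 432 to 884 CPM in the female vehicle and from 748 to 1972 CPM in the female DHT libraries, and their part in the Ngfr values was not tested.

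Of the GDNF receptors, Gfra1 rose in males and Gfra2 in females, both close to the threshold. Gfra1 (chr19:58235604-58455909, minus strand), the co-receptor that binds GDNF, had 6.28, 6.42, 6.55 and 6.24 log2 CPM in vehicle-treated males and 6.79, 6.76 and 6.68 in DHT-treated males. The groups did not overlap, and the log2 fold change was 0.37 ± 0.12 (limma adjusted p = 0.0473). In females the values were 6.87, 7.11, 6.54 and 6.68 with vehicle and 6.87, 6.60 and 6.90 with DHT, a log2 fold change of −0.01 ± 0.12 (limma adjusted p = 0.952). The males with DHT lay within the range of the vehicle-treated females. Without both libraries of unlike Xist level the male change was 0.37 and did not pass (limma adjusted p = 0.102). The male call was lost without any 1 of 8 libraries (limma adjusted p up to 0.128), among them male vehicle 1, 2 and 4, all 3 male DHT libraries, female vehicle 1 and female DHT 1. A stretch of 416 exonic bases lies opposite the antisense gene Gm16277.

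Gfra2 (chr14:70890120-70979838, plus strand), the co-receptor for neurturin, moved by a similar amount in both sexes. Female vehicle libraries had 4.24, 4.57, 4.58 and 4.17 log2 CPM and DHT libraries 4.95, 4.75 and 4.55, with DHT library 3 inside the vehicle range. The log2 fold change was 0.36 ± 0.13 (limma adjusted p = 0.0402). It no longer passed without female vehicle 1 (limma adjusted p = 0.0991), vehicle 4 (0.108), DHT 1 (0.182) or DHT 2 (0.102). Male vehicle libraries had 4.28, 4.08, 4.27 and 4.11 and DHT libraries 4.29, 4.63 and 4.64. They did not overlap, although DHT library 2 exceeded the highest vehicle library by little, and the log2 fold change of 0.33 ± 0.13 did not pass (limma adjusted p = 0.0832).

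Ret (chr6:118151745-118197718, minus strand), the shared signalling kinase, had 6.10, 6.44, 6.92 and 6.66 log2 CPM in vehicle-treated females and 6.98, 6.81 and 6.87 in DHT-treated females. The vehicle libraries were widely spread and overlapped those with DHT, and the log2 fold change of 0.36 ± 0.15 did not pass (limma adjusted p = 0.0650). Without female vehicle 3, the library with an unlike Xist level, it was 0.49 and passed (limma adjusted p = 0.00929). In males the values were 6.47, 6.65, 6.71 and 6.56 with vehicle and 6.54, 6.81 and 6.58 with DHT, a log2 fold change of 0.04 ± 0.15 (limma adjusted p = 0.859). Sensory ganglion neurons are known for expressing Ret, Gfra2, Ngfr and Ntrk3. Their 6 measured markers summed to 2.45 to 12.9 CPM in female vehicle, 3.80 to 15.5 in female DHT, 4.0 to 4.43 in male vehicle and 3.55 to 16.8 in male DHT libraries, with Scn10a and Mrgprd at 0 in some libraries, and their part in these values was not tested.

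Over the list, 3 of 8 genes rose and none fell in females, where 19.8% of all genes rose, and 2 of 8 rose and none fell in males, where 12.1% of all genes rose. The median log2 fold change of the 8 genes was 0.27 in each sex, against −0.02 and −0.0043 over all genes. Judged by overlap alone, DHT libraries lay wholly above vehicle libraries for 2 of 8 genes in females (Ntrk2 and Ntrk3) and for 4 of 8 in males (Bdnf, Ntrk3, Gfra1 and Gfra2), against 19% and 18.5% of all genes. No gene of the list was called in both sexes, which held for 12.6% of all genes. This too depended on the fit: Ntrk3 was called in both sexes when each sex was fitted alone (limma adjusted p = 0.0436 in females and 0.0270 in males), and with array weights both Ntrk3 (0.00211 and 0.0362) and Gfra2 (0.0211 and 0.0272) were. These shares describe the list and were not tested as a set.

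**Figure D2:**
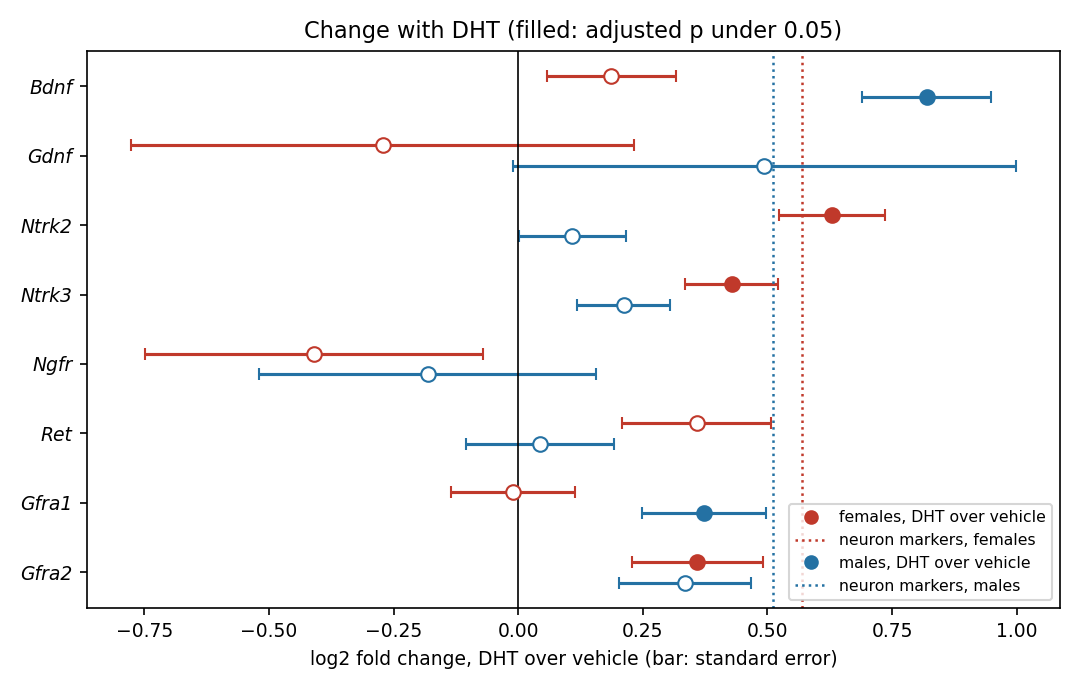
Log2 fold change of DHT over vehicle on the horizontal axis for the 8 genes on the vertical axis, with SE bars, for females (red) and males (blue). Filled points have a limma adjusted p under 0.05, and the dotted lines mark the change of the mean of 8 neuron markers, 0.57 in females and 0.51 in males. Bdnf in males (0.82) lies beyond the line of its sex, whereas the SE bar of Ntrk2 in females (0.63) spans the female line.

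The difference between the sexes was itself tested as the interaction of sex and DHT, which 1.86% of all genes passed. None of the 8 genes passed with limma, nor with voom on the recovered reads, while 3 had an unadjusted p under 0.05. For Bdnf the female effect was smaller than the male effect by 0.63 ± 0.18 on the log2 scale (limma adjusted p = 0.0734). For Ntrk2 the female effect was larger by 0.52 ± 0.15 (limma adjusted p = 0.0735). For Gfra1 the difference, female minus male, was −0.38 ± 0.18 (limma adjusted p = 0.176). For Gfra2 it was 0.02 ± 0.19 (limma adjusted p = 0.946), the smallest of the 8. The Ntrk2 interaction passed without female vehicle 3 (0.58, limma adjusted p = 0.0464) and without female DHT 3 (0.64, limma adjusted p = 0.00610). With all libraries, limma's array weights also passed Ntrk2 (limma adjusted p = 0.0124) and Bdnf (0.0394), and centring on astrocyte markers passed Bdnf (0.0103) and Gfra1 (0.0265). On the deposited scale with equal weights and all libraries kept, no gene of the list was shown to differ between the sexes in its response.

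Mean levels of several cell type marker lists differed with DHT, but no list passed after adjustment over 26 tests (exact permutation test, smallest adjusted p = 0.0929). In bulk tissue fewer cells of a type and less RNA per cell cannot be told apart. The mean of 8 neuron markers (Rbfox3, Snap25 and others) was higher by 0.57 log2 CPM in DHT-treated females, with libraries at 7.53 to 8.0 for vehicle and 8.08 to 8.48 for DHT, and all 8 markers rose. In males it was higher by 0.51, with 7.36 to 7.64 for vehicle and 7.95 to 8.09 for DHT, and 5 of 8 markers rose. The groups did not overlap in either sex. The exact two-sided permutation p was 0.0571 in females and 0.0286 in males, 0.0286 being the smallest that 35 splits allow, and the adjusted p over 26 tests was 0.149 and 0.0929. Oligodendrocyte markers were higher by 0.40 and 0.39 log2 CPM in females and males, 4 and 2 of 8 rising. Astrocyte markers differed by 0.08 in females, where 2 of 7 rose and 2 fell, and by −0.27 in males, where 1 of 7 fell. Microglia and macrophage markers differed by −2.04 log2 CPM in females, where all 7 fell, and by −1.25 in males, where 3 of 7 fell. T cell markers differed by −3.24 in females, where all 7 fell, and by −0.88 in males, where none passed. The female DHT libraries were far apart, with T cell means of −2.45, −0.33 and 2.0 log2 CPM against 2.57 to 3.48 for vehicle, and microglia and macrophage means of 4.06, 5.09 and 6.71 against 6.81 to 7.92. Without female DHT 1 the T cell difference was −2.14 and the microglia and macrophage difference −1.43. The part of these immune markers in the results for neurotrophic genes was not tested.

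**Figure D3:**
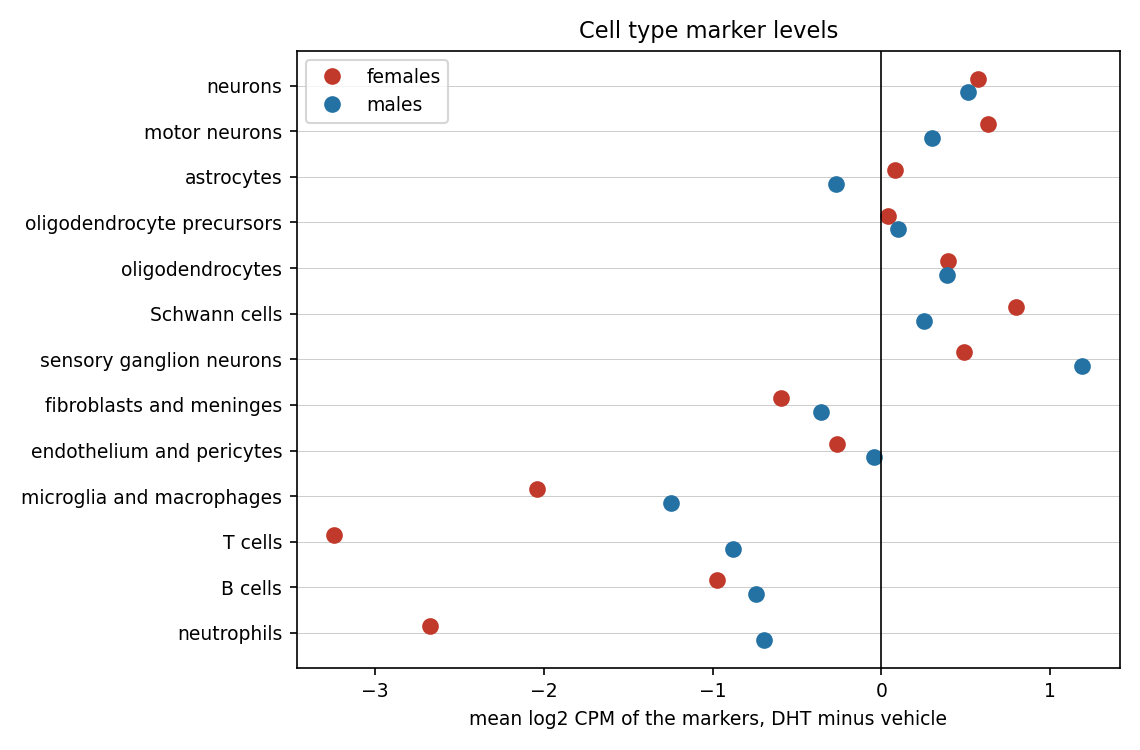
Mean log2 CPM of each list of cell type markers in DHT minus vehicle libraries on the horizontal axis, for 13 lists on the vertical axis, in females (red) and males (blue). Neuron markers lie at 0.57 and 0.51, and microglia and macrophage markers at −2.04 and −1.25.

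Relative to the neuron markers, most of these genes did not increase. Centring each library on the neuron marker mean, which moved the median log2 fold change of all genes to −0.59 in females and −0.52 in males, left Ntrk2 at 0.06 in females (limma adjusted p = 0.530). Ntrk2 minus the neuron mean was 0.40 to 0.57 in vehicle-treated and 0.48 to 0.54 in DHT-treated females. In males the same difference was 0.60 to 0.91 with vehicle and 0.28 to 0.43 with DHT, without overlap, and Ntrk2 stood at −0.40 (limma adjusted p = 0.00286). Ntrk3 turned to −0.14 in females (limma adjusted p = 0.189) and to −0.30 in males (limma adjusted p = 0.0164). Gfra2 was −0.21 in females and −0.18 in males (limma adjusted p = 0.0639 and 0.120). Gfra1, called higher in males on the deposited scale, became −0.14 there (limma adjusted p = 0.486) and −0.58 in females (limma adjusted p = 0.00940). Ret was −0.21 in females and −0.47 in males (limma adjusted p = 0.203 and 0.0156). Bdnf in males was the gene that stayed highest, at 0.31 (limma adjusted p = 0.0613), whereas Bdnf in females was −0.38 (limma adjusted p = 0.0211).

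Centring on astrocyte markers instead, with a median over all genes of −0.10 in females and 0.27 in males, gave Ntrk2 0.55 in females and 0.38 in males, both passing (limma adjusted p = 0.00574 and 0.0139). On that scale Bdnf was 0.11 in females and 1.09 in males (limma adjusted p = 0.619 and 0.000832). The direction of Ntrk2 in males therefore turned with the cell type used as the reference, while Bdnf in males was positive on each scale tried.

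**Figure D4:**
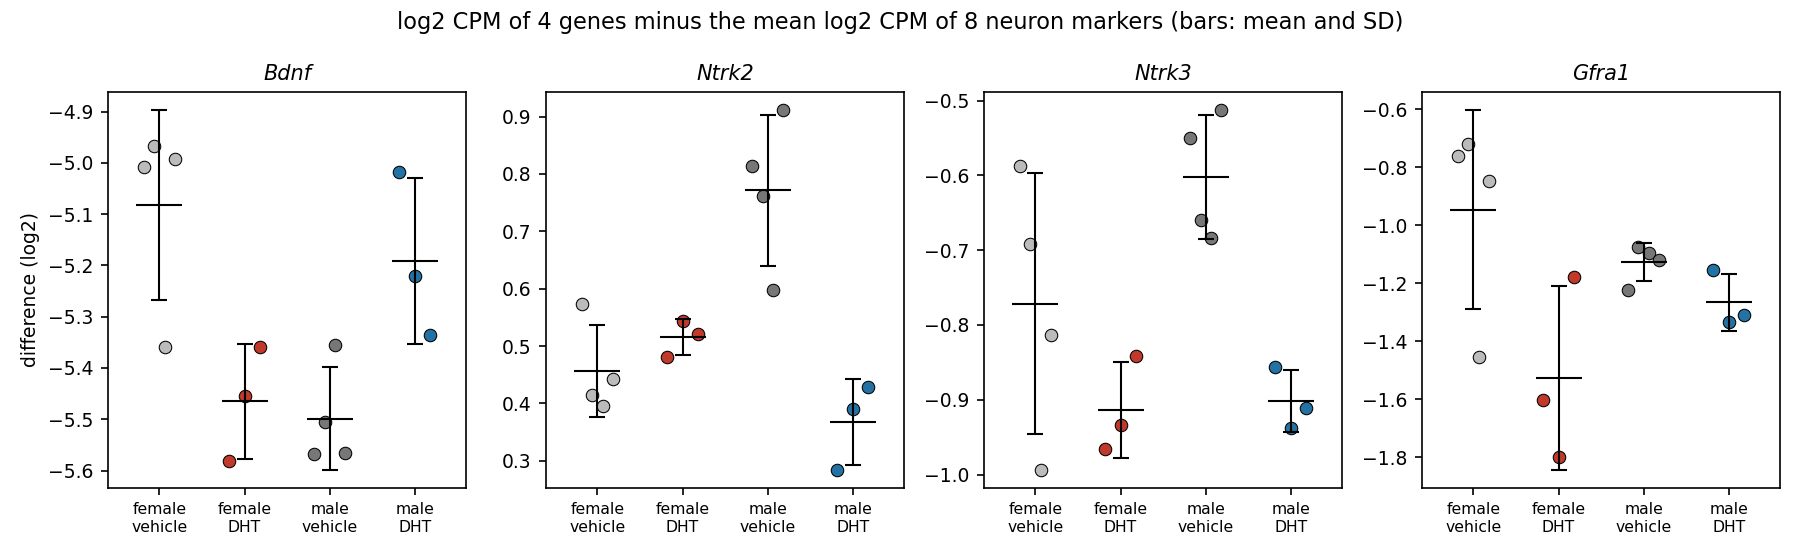
Log2 CPM of Bdnf, Ntrk2, Ntrk3 and Gfra1 minus the mean log2 CPM of 8 neuron markers in the same library on the vertical axis, with 1 point per library, bars for mean and SD, and the 4 groups on the horizontal axis. Ntrk2 in females overlaps between vehicle (0.40 to 0.57) and DHT (0.48 to 0.54), and in males the DHT libraries (0.28 to 0.43) lie below the vehicle libraries (0.60 to 0.91).

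Other genes of the pathways were taken from fixed lists. Of 15 genes that process and sort neurotrophins, 7 rose and 3 fell in females, and in males 5 rose and 3 fell, with median log2 fold changes of 0.47 and 0.33. Pcsk2, a prohormone convertase of regulated secretion, rose in both sexes, by 0.66 ± 0.13 in females and 0.51 ± 0.13 in males (limma adjusted p = 0.00478 and 0.0203). Sorcs3, a sorting receptor of the sortilin family, rose by 0.63 ± 0.12 and 0.43 ± 0.12 (limma adjusted p = 0.00478 and 0.0261). Sorl1, which traffics TrkB, rose in females by 0.47 ± 0.09 (limma adjusted p = 0.00478), and its male value was 0.15. Furin, which cleaves pro-neurotrophins in the secretory pathway, fell in females, with a log2 fold change of −1.40 ± 0.30 (limma adjusted p = 0.00503), and its male value was −0.31 ± 0.30. Named here because they passed, Pcsk1, Pcsk6, Sort1 and Sorcs1 also rose in females, and Plat, which encodes tissue plasminogen activator, fell. In males Pcsk1, Pcsk5 and Sorcs1 also rose, and Cpe, Plat and Bsg fell. Sort1 encodes sortilin, which binds pro-neurotrophins together with p75.

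Of 7 measured further ligands and receptors of these families, 2 rose and 1 fell in females and 2 fell in males. Over all genes 19.8% rose and 27.3% fell in females, and 10.7% fell in males. Gdf15, whose receptor GFRAL signals through Ret, fell in both sexes, with log2 fold changes of −1.64 ± 0.37 and −1.33 ± 0.37 (limma adjusted p = 0.00556 and 0.0239), at levels below 0 log2 CPM in every library. Nrtn, which encodes neurturin, the ligand of GFRα2, fell in males from 1.12 to 1.48 with vehicle to −0.21 to 0.47 log2 CPM with DHT, a log2 fold change of −1.21 ± 0.28 (limma adjusted p = 0.0126). Its female value was −0.63 ± 0.28 (limma adjusted p = 0.0828). Ncam1, an adhesion molecule that can serve as a GDNF receptor together with GFRα1, rose in females by 0.39 ± 0.10 (limma adjusted p = 0.00888). Gfra4, the persephin co-receptor, rose in females by 0.46 ± 0.12 (limma adjusted p = 0.00946).

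Adaptors of Trk and Ret moved in both directions, with 6 rising and 4 falling of 19 in females, against 4 and 3 in males. Among all genes 19.8% rose and 27.3% fell in females, against 12.1% and 10.7% in males. The RAS activator Sos1 rose by 0.58 ± 0.12 in females and 0.49 ± 0.12 in males (limma adjusted p = 0.00493 and 0.0161). Among Shc adaptors, Shc2, the form typical of neurons, rose in females by 0.36 ± 0.08 (limma adjusted p = 0.00568), and the widely expressed Shc1 fell, with −0.91 ± 0.18 (limma adjusted p = 0.00478). Sh2b2, an adaptor of receptor tyrosine kinases, fell in females with −1.04 ± 0.17 (limma adjusted p = 0.00478). The male values of Shc2, Shc1 and Sh2b2 were 0.04, −0.50 and −0.34, none passing. The docking proteins Frs2, Dok5 and Dok6 also rose in both sexes and the exchange factor gene Rapgef1 fell in both, and these too are named because they passed.

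Of 10 measured p75 partners, the female comparison called 3 higher and 4 lower, and the male comparison 1 higher and 2 lower. The shares of all genes were 19.8% higher and 27.3% lower in females, and 12.1% and 10.7% in males. Lingo1, a co-receptor of p75 in the Nogo receptor complex, rose in females by 0.49 ± 0.13 (limma adjusted p = 0.00835). The signalling partners Traf6 (−0.48 ± 0.12), Ripk2 (−0.82 ± 0.20) and Arhgdia (−0.66 ± 0.12) fell in females (limma adjusted p = 0.00813, 0.00734 and 0.00478). Their male values were 0.19, −0.23 and −0.16, none passing. These genes also act in immune cells, and the part of such cells in these values was not tested.

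Of 12 transcripts known to be induced by TrkB signalling, 1 rose and 3 fell in females, where the median log2 fold change was −0.12. In males 1 rose and none fell, with a median of 0.31. Arc, an immediate early gene of synapses, rose in females by 0.65 ± 0.22 (limma adjusted p = 0.0274), whereas Dusp6, a phosphatase that limits ERK, fell with −1.18 ± 0.22 (limma adjusted p = 0.00478) and the early gene Egr2 with −0.89 ± 0.29 (limma adjusted p = 0.0243). In males the gene that rose was Homer1, by 0.49 ± 0.09 (limma adjusted p = 0.00681). It encodes a scaffold of postsynaptic glutamate receptors and had 4.25 to 4.53 log2 CPM for vehicle and 4.81 to 5.0 for DHT. Centred on neuron markers its male change was −0.024, and a link to the male rise of Bdnf was not tested. Male values of Arc, Dusp6 and Egr2 were 0.33, −0.12 and 0.02.

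Among 12 other trophic factors, 1 rose and 4 fell in females and 1 rose in males. Nrg1, which encodes neuregulin, a factor of axons that acts on myelinating glia, rose in both sexes, by 0.66 ± 0.14 and 0.52 ± 0.14 (limma adjusted p = 0.00510 and 0.0230). Fgf2 (−1.40 ± 0.34), Hgf (−1.54 ± 0.46) and Manf (−0.74 ± 0.21) fell in females (limma adjusted p = 0.00702, 0.0176 and 0.0140), and their male values were −0.15, −0.71 and 0.34. No gene of these lists passed the interaction, so the difference between sexes was not shown for any of them. The counts are to be read against the 47.1% (19.8% higher, 27.3% lower) and 22.8% (12.1% higher, 10.7% lower) of all genes called in females and males. Without the library labelled male DHT 3, the male calls of Pcsk2 (0.47), Sorcs3 (0.38), Sos1 (0.38), Nrg1 (0.38), Nrtn (−1.07) and Gdf15 (−1.42) no longer passed (limma adjusted p from 0.0616 to 0.111), while that of Homer1 did. Without female DHT 1, the female calls of Arc (0.52), Egr2 (−0.91), Hgf (−1.15), Manf (−0.48) and Ncam1 (0.33) no longer passed (limma adjusted p from 0.0509 to 0.122). Some of these calls were also lost without other libraries: Arc, Egr2, Hgf or Manf without female DHT 2, vehicle 1, 2 or 4, and Gdf15, Nrg1, Pcsk2, Sorcs3 or Sos1 without male DHT 2 or 4 or vehicle 1 or 4.

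**Figure D5:**
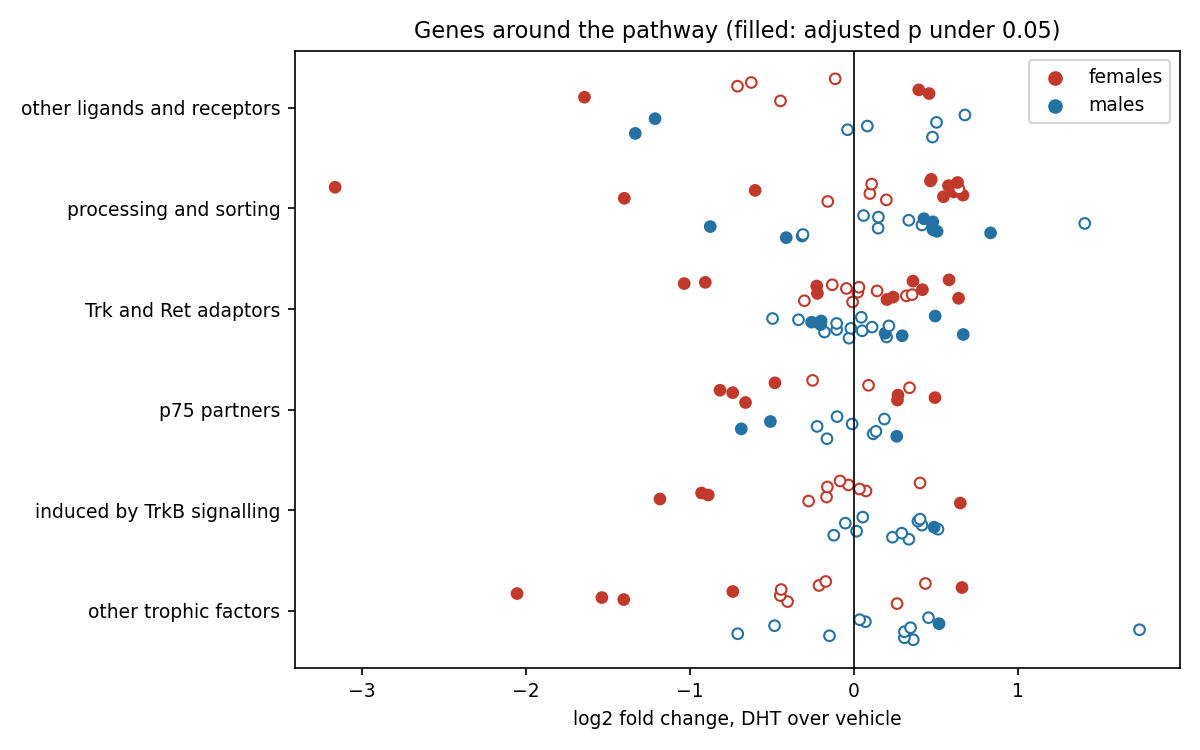
Log2 fold change of DHT over vehicle on the horizontal axis for the measured genes of 6 lists around the pathway on the vertical axis, females in red and males in blue, with filled points for a limma adjusted p under 0.05. Genes that process and sort neurotrophins lie mostly to the right in both sexes (medians 0.47 and 0.33), and the other trophic factors mostly to the left in females (median −0.42).

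Genes with the most similar profiles were sought by the root mean square difference over the 14 libraries after centring within each sex, among 14938 genes. Ntrk2 was closest to Chst10 (0.041), Acsl6 (0.050) and Camk2g (0.060), against a root mean square of 0.255 for Ntrk2 itself. Chst10, a sulfotransferase that makes the HNK-1 carbohydrate, changed by 0.60 in females and 0.09 in males. Bdnf was closest to Bmpr2 (0.108), Fmr1 (0.112) and Aasdhppt (0.115), against 0.324 for Bdnf itself, and these 3 genes changed by 0.60 to 0.74 in males and 0.12 to 0.29 in females. Besides its identical row, Ntrk3 was closest to Enah (0.043) and Kirrel3 (0.051). Gfra2 was closest to Syt13 (0.046) and Bmerb1 (0.063). For Gfra1 the nearest genes were Ttc39b, Slc30a4 and Nfat5 (0.086 to 0.096), and for Ret they were Pik3c3, Slc22a23 and Hykk (0.108 to 0.111). The 2 low genes had no close match: Gdnf was nearest to Aldh1a2 (0.326), Dcn and Thbd, and Ngfr to Fam89a (0.279), Galnt3 and Gm12174. These distances describe the 14 libraries and say nothing of shared function.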

How the data were processed

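Per the submitters' notes and the study's methods, the authors used FastQC and Picard for quality checks, fastp for trimming, DRAGEN for mapping to mm10 and counting, and edgeR and RUVSeq for normalization, and deposited log2 CPM values per library. The adjusted values join a female and a male dataset. The authors' own fold changes and p-values in the same table were not used. Whole reads came out of the log2 CPM in 100% of values up to 200 reads (tolerance 0.05), with a gene without reads at a CPM of 0.0631. These reads hold the normalization and are not raw counts, and no read total before it was used. Column names gave each library's group but not which labelled sample it was.

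The log2 CPM as deposited were fitted with 4 group means by limma 3.58.1 (R 4.3.3), with moderated variances and a trend, no pseudocount and no filter, and p was adjusted by Benjamini-Hochberg over 16703 genes at a threshold of 0.05. The fit was tested on simulated data. Marker levels were compared by exact two-sided permutation tests over 35 splits. The members and lists were chosen with earlier results of these data known. Text names all members, up to 4 genes per other list with the smallest p in either comparison, and per member the 3 genes of mean log2 CPM at least 0 with the most similar profile, except that some genes these rules select are not reported here. The missing direction was sought over 10958 genes with 200 reads in every library. Alternatives were leaving out libraries, a replicate block, other scalings, pseudocounts, filters, weights and voom, and, added after seeing the data, the missing direction as a covariate. Exon lengths and coordinates came from GENCODE on GRCm38. Python 3.11.15, numpy 2.4.6, pandas 2.3.3, scipy 1.17.1 and matplotlib 3.10.9 were used.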

Additional observations from a re-analysis of the deposited data

Results flagged for a closer look

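The Xist level of the female vehicle 3 library, 3.04 log2 CPM, lay far from those of the other female vehicle libraries. Its gap to the nearest of them was 0.919 of the group's range, above Dixon's 95% critical value for 4 samples. It was the only such value among 18 groups examined, namely the 8 genes and Xist in the vehicle groups of each sex, where chance gives about 1 in 20. Leaving this library out moved Ret in females to 0.49 (limma adjusted p = 0.00929) and the Ntrk2 interaction to 0.58 (limma adjusted p = 0.0464). Groups of 3 DHT libraries were not examined in this way.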

How the results depend on the processing

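The rise of Bdnf in males passed under all but 1 of 29 alternatives, the exception being values centred on neuron markers (0.31, limma adjusted p = 0.0613). The female rises of Ntrk2 and Ntrk3 each passed under all but 3 of 29, namely the replicate block, neuron centring and the housekeeping factor, and no single library left out ended them. Gfra1 in males and Gfra2 in females were calls at the edge, lost under 13 and 8 alternatives and reversed under 1 and 2. Depth limits Gdnf, with 5 to 39 reads. The causes were not tested.

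In females the number of the 8 genes called was 3. It became 0 with the number in the column names as a replicate block, 5 when centred on housekeeping genes and 0 with the housekeeping factor as a covariate, and it was 3 when centred on neuron markers, where the genes were others (Bdnf, Ngfr and Gfra1) and all lower. The block gave Ntrk2 0.55 and Ntrk3 0.34 (limma adjusted p = 0.0740 for each). Over all genes the block and the housekeeping factor called 0 of 16703 in females by limma, with 6557 and 231 at an unadjusted p under 0.05. The housekeeping factor itself followed treatment. In females it was −0.61 to −0.11 with DHT and 0.01 to 0.29 with vehicle, and in males −0.10 to 0.06 and 0.21 to 0.28. As a covariate it therefore takes up part of the DHT difference, so calls lost or turned under it cannot be assigned to scaling alone. Deviations of same-numbered libraries from their group means had correlations of −0.26, 0.19 and −0.50 in females and 0.04, 0.12 and −0.06 in males. So few values from small groups cannot decide whether the numbers pair the libraries, and the labels do not say. In males the number called was 2. It became 4 when each sex was fitted alone and with array weights, 5 when centred on astrocyte markers, and 1 with the replicate block, the housekeeping factor, no trend in the variance, both libraries with an unlike Xist level left out, or the missing direction as a covariate, an alternative added after seeing the data. In the interaction the number called was 0, and 2 when centred on astrocyte markers (Bdnf and Gfra1) or with array weights (Bdnf and Ntrk2). Leaving out 1 library at a time gave 2 to 4 in females, 1 to 3 in males and 0 to 1 in the interaction.

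Directions turned mainly with the scaling. Centring on neuron markers turned Bdnf in females to −0.38, Ntrk2 in males to −0.40, Ntrk3 to −0.14 and −0.30 in females and males, Gfra1 in males to −0.14, Gfra2 to −0.21 and −0.18, Ret to −0.21 and −0.47, Gdnf in males to −0.018 and the Gfra2 interaction to −0.034. It also turned Ncam1 (−0.18), Gfra4 (−0.11), Sorl1 (−0.10), Shc2 (−0.21) and Lingo1 (−0.077) in females and Sorcs3 (−0.086), Pcsk2 (−0.0058), Sos1 (−0.017) and Homer1 (−0.024) in males. The housekeeping factor turned Bdnf (−0.060), Gdnf (0.53), Ngfr (0.33), Gfra1 (0.0078), Gfra2 (−0.19), Shc1 (0.026), Ripk2 (0.048), Traf6 (0.035), Lingo1 (−0.044), Arc (−0.18) and Hgf (0.62) in females. It turned Ntrk2 (−0.15), Ngfr (0.21) and Ret (−0.0056) in males and the interactions of Ngfr (0.12) and Gfra2 (−0.23). Centring on astrocyte markers turned Ngfr in males (0.088) and the interactions of Ntrk3 (−0.13), Gfra2 (−0.33) and Ret (−0.036). Centring on housekeeping genes, with a median over all genes of 0.27 in females, turned Gdnf (0.014) and Gfra1 (0.28) in females and the Ngfr interaction (0.024). Quantile normalization, with a median of 0.13 in females, turned Gdnf in females (0.044), the block turned the Gfra2 interaction (−0.080), and leaving out both libraries with an unlike Xist level turned Ret in males (−0.040).

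With 1 library left out, values ranged across 0 for Ngfr in females (−0.79 to 0.10) and its interaction (−0.61 to 0.28), Gfra1 in females (−0.096 to 0.093), the Gfra2 interaction (−0.091 to 0.12), Ret in males (−0.040 to 0.094), sensory ganglion markers in females (−0.27 to 1.08) and vascular markers in males (−0.15 to 0.062). Of 29 calls of other named genes, 29 were lost under the replicate block, and under the housekeeping factor 23 were lost and 6 turned. Exact tests of marker levels cannot reach their threshold with a library left out.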
